A study of Mus musculus with 6 samples.

Results

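Imprinted genes are transcribed mainly from the copy inherited from a given parent, and 42 named mouse genes of this kind were followed in whole E10.5 embryos. All 42 were found by symbol among the 23366 genes of the count files. They were divided, from textbook knowledge, into 22 genes expressed from the paternal copy, 11 expressed from the maternal copy and 9 whose imprinting is restricted to an isoform, to placenta or to neurons. Polyadenylated RNA had been sequenced from 3 control and 3 knockout embryos. Every embryo was Trp53-/-, without the tumour suppressor p53, carried the Sox2-Cre transgene (Tg/0) and had a mixed C57BL/6, CD1 and 129 background. Controls were fl/+ at both H3f3a and H3f3b, the genes that encode histone H3.3, and knockouts were fl/- at both. Sox2-Cre recombines floxed alleles in the epiblast, from which the embryo proper forms, so the floxed alleles of the controls were open to deletion too and the controls are no measure of intact H3.3 genes. The labels do not say whether embryos were littermates or whether animals were pooled, so a p-value reflects only how much these samples vary.

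Imprints are laid down as DNA methylation in the germ line at imprinting control regions and are held on the marked parental copy after fertilisation. Several imprinted domains hold a long non-coding RNA made from the copy on which the coding genes are silent. Many paternally expressed genes promote the growth of the embryo, and several maternally expressed ones restrain it. The counts do not separate the parental copies: a level is the sum of both alleles and says nothing of which copy was read. The strand setting of the counting is not given in the sources used here, so reads of genes that overlap or run antisense to each other cannot be told apart.

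The upstream sequences of 4 members are shown because these genes carry the main differences described here: the only called member, the receptor gene and antisense RNA that were both higher in every knockout, and the member with the largest fold. Each is the stretch of 250 bases that ends at the first listed RefSeq start of transcription (GRCm38.p6), read in the direction of the gene. Capitals mark TGCCGC, or GCGGCA where it lies on the other strand, the hexamer that the zinc finger protein ZFP57 binds when methylated at imprinting control regions.
Nnat, chr2:157559828-157560077, plus strand: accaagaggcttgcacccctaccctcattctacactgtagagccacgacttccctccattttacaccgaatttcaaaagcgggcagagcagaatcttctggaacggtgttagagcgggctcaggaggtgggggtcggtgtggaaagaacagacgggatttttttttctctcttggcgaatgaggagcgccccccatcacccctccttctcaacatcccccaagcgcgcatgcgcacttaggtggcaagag
Airn, chr17:12741061-12741310, plus strand: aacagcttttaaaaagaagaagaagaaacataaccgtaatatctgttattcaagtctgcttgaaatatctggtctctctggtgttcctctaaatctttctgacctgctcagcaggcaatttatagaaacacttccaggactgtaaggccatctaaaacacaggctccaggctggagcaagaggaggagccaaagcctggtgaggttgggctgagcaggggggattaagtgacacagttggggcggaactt
Igf2r, chr17:12769707-12769956, minus strand: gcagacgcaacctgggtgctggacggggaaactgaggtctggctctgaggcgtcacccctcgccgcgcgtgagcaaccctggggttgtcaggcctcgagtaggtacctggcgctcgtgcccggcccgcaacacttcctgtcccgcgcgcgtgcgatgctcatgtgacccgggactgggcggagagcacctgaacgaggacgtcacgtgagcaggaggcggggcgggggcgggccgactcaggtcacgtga
Meg3, chr12:109540746-109540995, plus strand: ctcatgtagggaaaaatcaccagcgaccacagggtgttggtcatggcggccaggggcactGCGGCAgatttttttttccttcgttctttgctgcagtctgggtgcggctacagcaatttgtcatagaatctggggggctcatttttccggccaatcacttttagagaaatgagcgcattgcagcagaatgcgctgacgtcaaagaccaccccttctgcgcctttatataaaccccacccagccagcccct
Over windows of 300 bases (250 before the start and 50 after it), the Meg3 stretch holds the hexamer 190 bases before its start and the Nnat window holds it 27 bases after its start, outside the stretch shown. The Igf2r window has 34 CpG dinucleotides, the Nnat window 17, the Meg3 window 13 and the Airn window 3. RefSeq start windows were given for 35 of the 42 members, 51 windows in all. The hexamer was found on either strand in 12 of the 51, which is 23.5%, and in 3813 of all 32851 windows, which is 11.6%. Member windows had a median of 15 CpG dinucleotides against 7 over all windows, and the hexamer itself holds a CpG. H19, Cdkn1c, Peg10, Rtl1, Impact, Sgce and Dcn had no window.

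3 members of the Dlk1-Dio3 domain are precursors of small RNAs. A mature microRNA inside each is shown because its host transcript was higher in the knockouts at an unadjusted p under 0.05. Capitals mark the seed, bases 2 to 8.
miR-770-5p, inside Meg3, chr12:109563710-109563731, plus strand: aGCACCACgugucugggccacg
miR-370-3p, inside Rian, chr12:109618305-109618326, plus strand: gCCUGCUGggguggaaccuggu
miR-410-3p, inside Mirg, chr12:109743764-109743784, plus strand: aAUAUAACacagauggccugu
The 3 seeds differ from one another. By RefSeq coordinates (GRCm38.p6), Mirg spans 10 microRNA genes on its own strand, Rian 3 and Meg3 2. Polyadenylated libraries do not measure mature microRNAs, and the separate Mir410 entry of the gene table had 0 counts in all 6 libraries.

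The libraries held 24952853 to 30461689 counts in genes. H3f3a fell from 349 ± 15.4 to 67.7 ± 2.91 CPM (counts scaled to TMM-adjusted library size; SD, n = 3) and H3f3b from 691 ± 31.5 to 455 ± 56.8 CPM. H3f3a thus stood at 0.194 times and H3f3b at 0.658 times the control level, so that both moved in the labelled direction and a large part of the H3f3b counts remained in the knockouts. The counts pool all exons, so the remaining counts of either gene do not measure intact transcript. Markers of neurons, mesenchyme, muscle and erythroid cells were present in every library. Of 12 trophoblast markers, Tpbpa, Prl2c2, Rhox9 and Ctsq were at 0 in all libraries, and the list summed to 12.8 to 16.7 CPM in controls and 13.1 to 17.0 CPM in knockouts. Most of that sum was Hand1, at 9.54 to 13.6 CPM in controls and 11.4 to 16.1 CPM in knockouts. The other tested markers were lower and not called, Prl3b1 at a log2 fold change of -0.94 ± 0.39 and Synb at -0.95 ± 0.42 (SE, edgeR adjusted p = 0.234 and 0.254). The sum thus does not show equal trophoblast content. Macrophage markers fell (10 of 11 called lower), from 60.2 to 73.4 CPM in controls to 3.03 to 4.47 CPM in knockouts. Of 8 tested markers of yolk sac and liver endoderm, 7 had a log2 fold change below 0. Among them 1, Ttr, was called lower (log2 fold change -1.69 ± 0.23, SE, edgeR adjusted p = 0.00886). In whole embryos, fewer cells of a type and less RNA per cell cannot be told apart. The libraries also differed in the share of alignments outside annotated genes, which was 9.79%, 10.7% and 13.1% in controls 1 to 3 and 18.3%, 10.6% and 18.02% in knockouts 1 to 3. Knockout 2 stood apart in another way: 12 markers of low oxygen summed to 5506 CPM there, against 2070 and 2749 CPM in the other knockouts and 1756 to 2184 CPM in controls. In 7 of the 12 the rise was not confined to that library: every knockout lay above every control, against 11.8% of all tested genes. All 12 had a log2 fold change above 0, which knockout 2 alone could give, and the sum in knockout 1 lay within the control range. Vegfa, the 1 marker called higher, stood at 33.2, 38.1 and 49.2 CPM in controls and at 84.9, 128 and 131 CPM in knockouts.

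Of the imprinted genes 1, Nnat, passed the test. A gene was called when its p in edgeR's quasi-likelihood test, adjusted by the Benjamini-Hochberg method over the 15075 tested genes, was under 0.05. Of the 42 members 40 passed the low-count filter, and only the paternally expressed Nnat was called, in the lower direction. Over all tested genes 0.551% were called higher and 0.955% lower. At an unadjusted p under 0.05, 10 of the 40 were higher and 3 lower, against 10.7% and 8.53% of all tested genes. In 7 of the 40 every knockout lay above every control and in 4 every knockout lay below, against 11.8% and 12.3% of all tested genes. DESeq2 called 8 members higher (Airn, Magel2, Kcnq1ot1, Peg10, Igf2r, Rian, Mirg and Meg3) and Nnat lower, against 2.66% of all genes higher and 1.98% lower by DESeq2. Without knockout 2, edgeR called 8 members higher and 4 lower, against 7.55% and 3.28% of all genes tested in that fit. Leaving out any other library gave no member call. Slc22a18 and Ascl2, both maternally expressed, did not pass the filter.

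No class by parental copy had more than 1 gene called. Of 22 paternally expressed genes 10 had a log2 fold change above 0 and 12 below, with a median of -0.02, against -0.001 over all tested genes. Among them 5 had an unadjusted p under 0.05 in the higher direction (Airn, Magel2, Kcnq1ot1, Peg10 and Plagl1) and 1, Nnat, in the lower. Of 9 tested maternally expressed genes 6 were above 0 and 3 below, with a median of 0.08. Here 4 had an unadjusted p under 0.05, all of them higher (Meg3, Mirg, Rian and Igf2r), and none was called by edgeR, against 4 by DESeq2. Of the 9 genes with restricted imprinting 3 were above 0 and 6 below, with a median of -0.08 and no call by edgeR or DESeq2. Ppp1r9a was higher and Inpp5f and Commd1 lower at an unadjusted p under 0.05. The medians moved with the libraries and filters used. The maternal median ran from 0.02 without knockout 1 to 0.20 without knockout 2, and was 0.27 with only genes of at least 1 CPM in 3 libraries. The paternal median ran from -0.08 without knockout 2 to 0.02 without knockout 3, and was 0.04 with library totals and 0.08 with knockout 2 as the only knockout. The restricted median ran from -0.11 without knockout 2 to -0.05 without knockout 3, and was -0.02 with library totals or with knockout 2 as the only knockout. The difference between the classes was not tested.

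**Figure D1:**
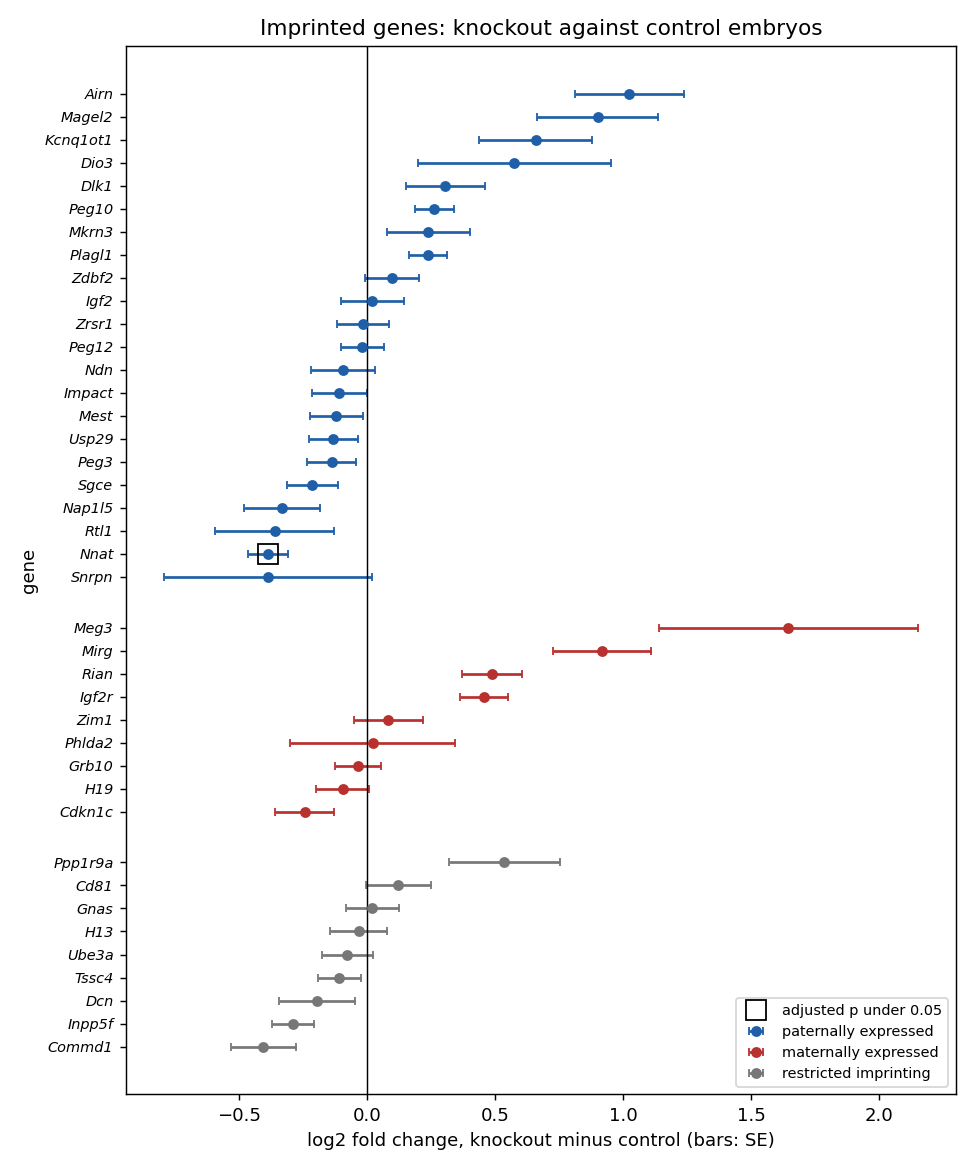
Log2 fold change of each of the 40 tested imprinted genes (x axis, knockout minus control, edgeR; bars are SE) by gene (y axis), with paternally expressed, maternally expressed and restricted genes in separate blocks. The boxed gene, Nnat, is the only one with an adjusted p under 0.05, and Meg3 has the largest change at 1.64 with the widest SE among the maternally expressed genes.

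Nnat was the only called member. It encodes neuronatin, a small membrane protein of developing brain and pancreas, and lies inside an intron of Blcap. Nnat stood at 565, 528 and 521 CPM in controls 1 to 3 and at 407, 433 and 394 CPM in knockouts 1 to 3. The groups did not overlap, and knockout 2 was the highest knockout. The mean fell from 538 ± 23.9 to 411 ± 20.0 CPM (SD, n = 3), which is 1.31-fold lower, and the log2 fold change was -0.39 ± 0.08 (SE; edgeR adjusted p = 0.0493). Its host Blcap, named after its values were seen, was at 41.3 ± 1.65 and 41.99 ± 1.58 CPM, with a log2 fold change of 0.02 ± 0.08 at an edgeR adjusted p of 0.885. Markers of neurons lay below 0 in 9 of 9 cases and 1 was called, Nhlh1, with a median of -0.32. Their summed level was 887 to 1200 CPM in controls and 743 to 973 CPM in knockouts, and its part in the Nnat result was not tested. The edgeR call was lost with any library but knockout 2 left out: the adjusted p was 0.297 without control 1, 0.118 without control 2, 0.0982 without control 3, 0.116 without knockout 1 and 0.265 without knockout 3.

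Igf2r and Airn were both higher in every knockout embryo, though neither was called. Igf2r encodes the receptor that carries IGF2 and mannose-6-phosphate-tagged enzymes to lysosomes and is expressed from the maternal copy. Airn, the non-coding RNA that starts inside Igf2r and runs antisense to it on the paternal copy, silences Igf2r there. Igf2r stood at 349, 327 and 389 CPM in the controls and at 492, 450 and 520 CPM in the knockouts. Airn stood at 4.84, 4.80 and 5.97 CPM in the controls and at 11.3, 7.35 and 13.04 CPM in the knockouts. No values overlapped between groups for either gene, and knockout 2 was the lowest knockout for both. The log2 fold change of Igf2r was 0.46 ± 0.09 (SE; edgeR adjusted p = 0.0504), and that of Airn was 1.02 ± 0.21 (edgeR adjusted p = 0.0554). The ratio of Igf2r to Airn counts in the same library was 72.1, 68.3 and 65.2 in controls and 43.5, 61.2 and 39.9 in knockouts. That ratio differed by -0.53 on the log2 scale (two-sided exact permutation p = 0.1, the smallest that 3 against 3 allows). Because Airn overlaps the start of Igf2r and strand use in counting is not known, part of the counts of either gene may belong to the other. Without knockout 2 both genes passed (edgeR adjusted p = 0.007 for Igf2r and 0.00128 for Airn), in a fit that called 7.55% of all genes higher. With any other library left out neither passed, and without control 1 the edgeR adjusted p was 0.281 for Igf2r and 0.271 for Airn.

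In the Dlk1-Dio3 domain the 3 maternally expressed non-coding RNAs were higher in the knockouts at an unadjusted p under 0.05, and the 3 paternally expressed coding genes were not. Meg3, the first of these RNAs, stood at 85.7, 127 and 203 CPM in controls and at 526, 195 and 577 CPM in knockouts. Knockouts 1 and 3 lay far above every control, while knockout 2 lay below control 3. The log2 fold change of Meg3 was 1.64 ± 0.51 (SE; edgeR adjusted p = 0.175). Rian, which hosts small nucleolar RNAs and microRNAs, stood at 322, 391 and 383 CPM in controls and at 513, 444 and 579 CPM in knockouts. Its groups did not overlap, with a log2 fold change of 0.49 ± 0.12 (edgeR adjusted p = 0.0814). Mirg, the microRNA host whose miR-410-3p is printed above, stood at 7.37, 9.22 and 8.06 CPM in controls and at 17.6, 10.97 and 17.9 CPM in knockouts. It too did not overlap, with a log2 fold change of 0.92 ± 0.19 (edgeR adjusted p = 0.0566). The ratio between these RNAs varied over the embryos: Rian counts were 3.76, 3.08 and 1.89 times those of Meg3 in controls and 0.975, 2.28 and 1.00 times in knockouts, a difference of -1.10 on the log2 scale (two-sided exact permutation p = 0.2). Without knockout 2, Rian and Mirg were called (edgeR adjusted p = 0.00657 and 0.000821) and Meg3 was not (0.068). With any other library left out neither Rian nor Mirg was called, and without control 1 the edgeR adjusted p was 0.354 for Rian and 0.28 for Mirg.

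The coding genes of the same domain followed another pattern over the embryos. Dlk1, a membrane protein related to Notch ligands, stood at 191, 200 and 165 CPM in controls and at 193, 292 and 202 CPM in knockouts. Here knockout 2 was the highest library and the other 2 knockouts lay close to the controls (log2 fold change 0.31 ± 0.15, edgeR adjusted p = 0.307). Without knockout 2 the log2 fold change of Dlk1 was 0.09. The low-oxygen markers, taken as a sum, were highest in the same library, and their part in the Dlk1 level was not tested. Dio3, the deiodinase that inactivates thyroid hormone, had only 23, 30 and 36 counts in controls and 23, 65 and 38 in knockouts, again highest in knockout 2, and its log2 fold change of 0.58 ± 0.38 fell to 0.10 without that library. Rtl1, a gene derived from a retrotransposon with a role in placenta, stood at 1.58, 1.67 and 1.80 CPM in controls and at 1.58, 1.26 and 1.10 CPM in knockouts, with a log2 fold change of -0.36 ± 0.23 (edgeR adjusted p = 0.412). The ratio of Meg3 to Dlk1 counts was 0.449, 0.633 and 1.23 in controls and 2.72, 0.667 and 2.86 in knockouts, so that knockout 2 lay within the controls (difference 1.30 on the log2 scale, two-sided exact permutation p = 0.2).

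**Figure D2:**
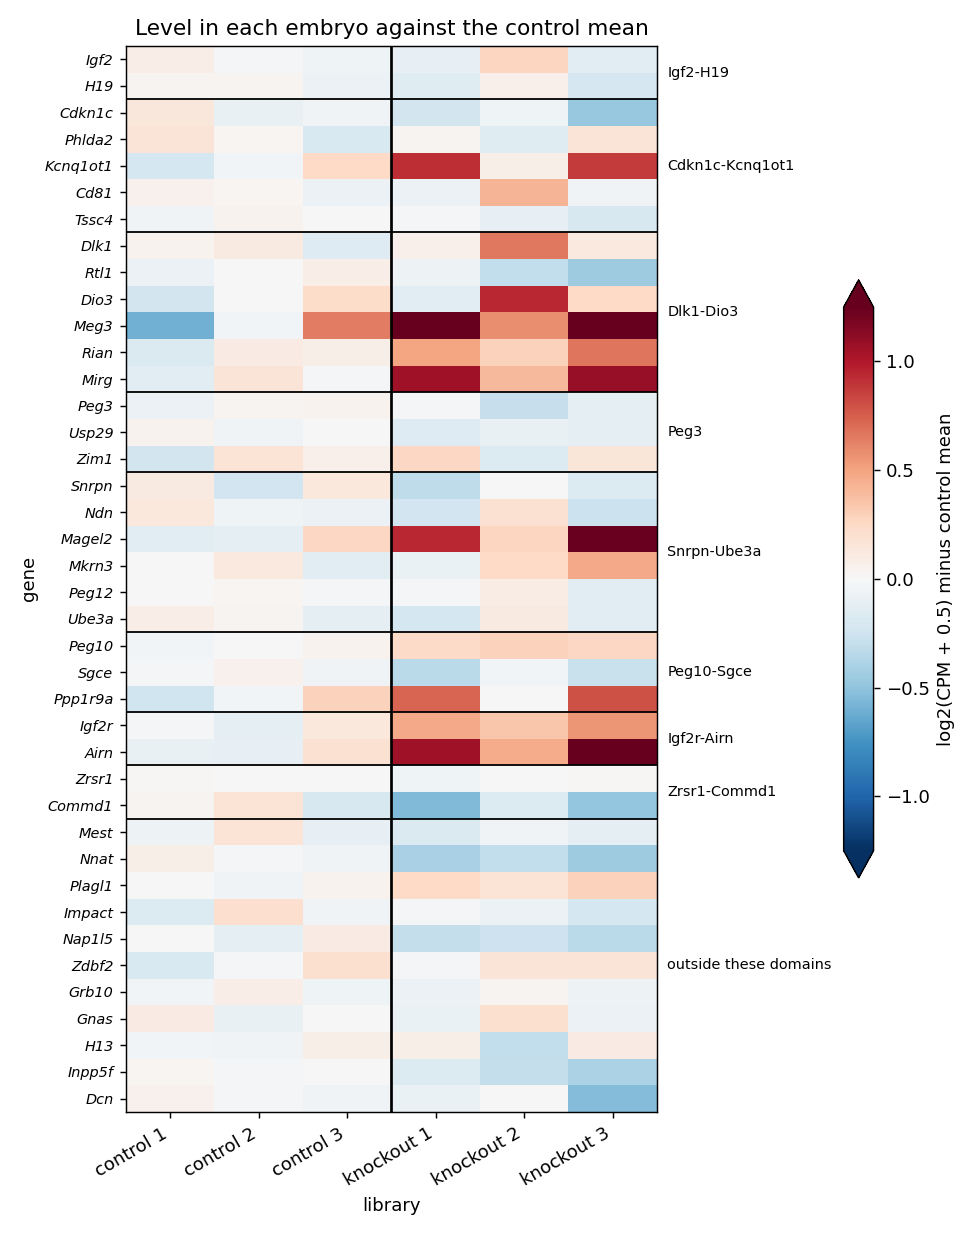
Level of the 40 tested imprinted genes (rows, grouped by domain) in each of the 6 embryos (columns), as log2(CPM + 0.5) minus the control mean, red for higher and blue for lower. Meg3, Mirg, Kcnq1ot1, Magel2 and Airn are darkest in knockouts 1 and 3, whereas Dlk1 and Dio3 are darkest in knockout 2.

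In the Cdkn1c-Kcnq1ot1 domain the non-coding RNA was the only gene with an unadjusted p under 0.05. Kcnq1ot1, the antisense RNA made from the paternal copy of Kcnq1, stood at 101, 115 and 140 CPM in controls and at 223, 124 and 215 CPM in knockouts. Knockouts 1 and 3 lay above every control and knockout 2 within the controls, with a log2 fold change of 0.66 ± 0.22 (SE; edgeR adjusted p = 0.172). Without knockout 2 it was 0.88 at an edgeR adjusted p of 0.00194, and with knockout 2 as the only knockout it was 0.06 at 0.907. Cdkn1c, the maternally expressed inhibitor of cyclin-dependent kinases p57, stood at 446, 379 and 393 CPM in controls and at 346, 390 and 292 CPM in knockouts. These overlapped, with a log2 fold change of -0.24 ± 0.11 (edgeR adjusted p = 0.276; 0.048 without knockout 2). The ratio of Kcnq1ot1 to Cdkn1c counts was 0.226 to 0.357 in controls and was 0.647, 0.317 and 0.737 in knockouts, a difference of 0.87 on the log2 scale (two-sided exact permutation p = 0.2).

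The other genes of that domain did not pass the test or were near the detection limit. Phlda2, which limits placental growth, had a level of 0.459 to 0.720 CPM in controls and 0.480 to 0.721 CPM in knockouts. Slc22a18, a membrane transporter, had 10, 11 and 13 counts in controls and 7, 2 and 5 in knockouts, and Ascl2, a factor of the trophoblast lineage, had 3, 7 and 6 against 4, 11 and 4. Cd81, a tetraspanin whose imprinting is confined to placenta, was highest in knockout 2 at 149 CPM and lay between 105 and 115 CPM in the other 5 libraries. Tssc4 stood at 33.5 to 35.6 CPM in controls and 30.1 to 33.9 CPM in knockouts, with a log2 fold change of -0.11 ± 0.08 (edgeR adjusted p = 0.491). Kcnq1 itself, named after its values were seen, had 21 to 25 counts in controls and 23 to 38 in knockouts.

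Igf2 and H19, the most studied imprinted pair, were among the most abundant members and overlapped between the groups. Igf2 encodes the main fetal growth factor from the paternal copy, and H19 a maternally expressed non-coding RNA that shares its enhancers. Igf2 stood at 2096, 1950 and 1904 CPM in controls and at 1846, 2384 and 1800 CPM in knockouts. H19 stood at 2418, 2421 and 2250 CPM in controls and at 2121, 2470 and 2045 CPM in knockouts. In both genes knockout 2 was the highest of all 6 libraries and the other knockouts the lowest. The log2 fold changes were 0.02 ± 0.12 for Igf2 and -0.10 ± 0.10 for H19 (edgeR adjusted p = 0.949 and 0.634). H19 counts were 1.15, 1.24 and 1.18 times those of Igf2 in controls and 1.15, 1.04 and 1.14 times in knockouts, a difference of -0.11 on the log2 scale at the smallest two-sided exact permutation p that 3 against 3 allows, 0.1. Per kilobase of exon, H19 had the highest control level of the 42 at 961 CPM, followed by Mest at 510 and Igf2 at 347.

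Genes of the IGF axis that are not imprinted were listed beside the pair. Of 18 tested, none was called by edgeR. At an unadjusted p under 0.05, 6 lay higher and 1 lower, against 10.7% and 8.53% of all tested genes. The median change was 0.19 on the log2 scale, against -0.001 over all tested genes. The smallest p belonged to Pappa, a protease that cleaves IGF-binding proteins, at 14.7 ± 1.57 CPM in controls and 23.04 ± 4.38 CPM in knockouts (log2 fold change 0.65 ± 0.15, edgeR adjusted p = 0.0752). Pappa was the 1 gene of this list that DESeq2 called. The receptor gene Igf1r had a log2 fold change of 0.31 ± 0.10 (adjusted p = 0.162), the RNA-binding protein gene Igf2bp1 0.24 ± 0.08 (0.159) and the binding protein gene Igfbp7 0.64 ± 0.23 (0.185). Grb10, a maternally expressed adaptor that damps insulin and IGF receptor signalling, stood at 1832, 1985 and 1808 CPM in controls and at 1782, 1915 and 1787 CPM in knockouts, with a log2 fold change of -0.04 ± 0.09.

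In the Peg3 domain no gene passed the test. Peg3, a paternally expressed zinc finger gene, stood at 1064 to 1155 CPM in controls and at 1103, 921 and 1032 CPM in knockouts, with a log2 fold change of -0.14 ± 0.09 (edgeR adjusted p = 0.434). Usp29, which starts beside it and is also paternal, had 15.2 to 16.1 CPM in controls and 13.9 to 14.6 CPM in knockouts. Its groups did not overlap, but the log2 fold change of -0.13 ± 0.10 had an edgeR adjusted p of 0.463. Zim1, the maternally expressed neighbour, ran from 36.8 to 48.8 CPM in controls and from 38.6 to 51.9 CPM in knockouts. The ratio of Zim1 to Peg3 counts differed by 0.22 on the log2 scale (two-sided exact permutation p = 0.2) and that of Usp29 to Peg3 by 0.01 (p = 1).

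Among the paternally expressed genes of the Snrpn-Ube3a domain, Magel2 alone had an unadjusted p under 0.05. Magel2 and Ndn are neighbouring genes of the MAGE family. Magel2 stood at 7.24, 7.35 and 9.65 CPM in controls and at 15.8, 9.75 and 19.6 CPM in knockouts. The lowest knockout, knockout 2, lay just above the highest control, and the log2 fold change was 0.90 ± 0.24 (SE; edgeR adjusted p = 0.107; 0.00203 without knockout 2). Ndn stood at 141, 124 and 122 CPM in controls and at 109, 147 and 107 CPM in knockouts, with knockout 2 the highest library and a log2 fold change of -0.09 ± 0.13. Magel2 counts were 0.0514, 0.0591 and 0.0790 times those of Ndn in controls and 0.145, 0.0663 and 0.184 times in knockouts (difference 0.96 on the log2 scale, two-sided exact permutation p = 0.2). Mkrn3, a makorin ubiquitin ligase, Peg12, and Ube3a, the ligase gene imprinted in neurons, had log2 fold changes of 0.24 ± 0.16, -0.02 ± 0.08 and -0.08 ± 0.10. Snrpn was listed at only 14, 8 and 14 counts in controls and 6, 11 and 9 in knockouts. The overlapping Snurf had 0 to 2 counts, and reads shared by overlapping genes may not have been assigned, so the level of Snrpn is uncertain.

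In the Peg10-Sgce domain the 2 paternally expressed genes, which lie head to head, had fold changes of opposite sign. Peg10, a gene derived from a retrotransposon that is needed for the placenta, stood at 742, 755 and 780 CPM in controls and at 894, 930 and 908 CPM in knockouts. The groups did not overlap and the 3 knockouts lay close together, with a log2 fold change of 0.26 ± 0.08 (edgeR adjusted p = 0.129). Sgce, which encodes epsilon-sarcoglycan, stood at 32.3, 33.9 and 31.7 CPM in controls and at 25.8, 31.8 and 26.8 CPM in knockouts, with knockout 2 just above control 3 (log2 fold change -0.21 ± 0.10, edgeR adjusted p = 0.276; 0.0489 without knockout 2). Sgce counts were 0.0435, 0.0450 and 0.0406 times those of Peg10 in controls and 0.0289, 0.0342 and 0.0296 times in knockouts. Every knockout ratio lay below every control ratio, by 0.48 on the log2 scale (two-sided exact permutation p = 0.1, the smallest possible). Ppp1r9a, a neuronal actin-binding protein gene nearby, stood at 61.6, 71.7 and 89.4 CPM in controls and at 122, 73.0 and 128 CPM in knockouts. Its log2 fold change of 0.54 ± 0.22 (edgeR adjusted p = 0.232) was -0.02 with knockout 2 as the only knockout and 0.75 without knockout 2 (edgeR adjusted p = 0.008).

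**Figure D3:**
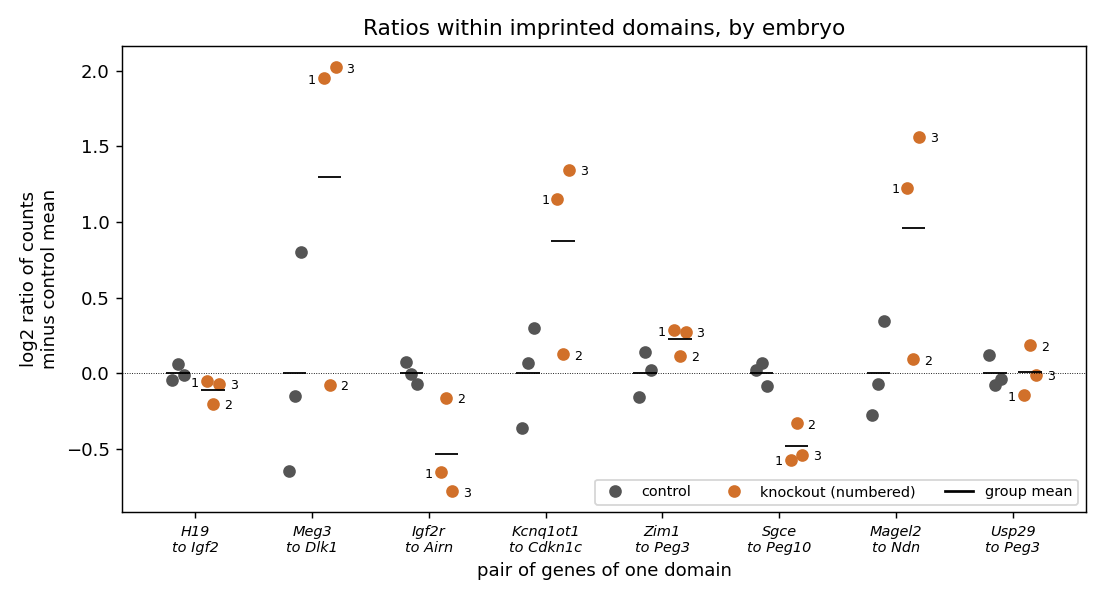
Log2 ratio of the counts of 2 genes of the same domain in each embryo (y axis), set to the control mean, for 8 pairs (x axis). Grey points are controls, orange points knockouts with their numbers, and bars are group means. Sgce to Peg10, Igf2r to Airn and, narrowly, H19 to Igf2 lie below all controls in every knockout. Meg3 to Dlk1 and Kcnq1ot1 to Cdkn1c lie near the controls in knockout 2.

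The ratios within a library do not depend on library scaling, and 11 were compared, chosen after the values were seen. With p-values adjusted over the 11, the smallest was 0.244, so none passed, and with 3 embryos a group none could.

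Outside these domains, Plagl1, Inpp5f and Nap1l5 had groups that did not overlap, as had Nnat. Plagl1, a paternally expressed zinc finger factor, stood at 291, 281 and 300 CPM in controls and at 346, 326 and 356 CPM in knockouts, with a log2 fold change of 0.24 ± 0.07 (edgeR adjusted p = 0.139; 0.0407 without knockout 2). Inpp5f, a phosphoinositide phosphatase gene with an imprinted brain isoform, stood at 65.3, 63.2 and 63.8 CPM in controls and at 56.8, 52.1 and 48.5 CPM in knockouts, with a log2 fold change of -0.29 ± 0.08 (edgeR adjusted p = 0.119). All 3 knockouts were lower than all controls. The same held for Nap1l5, a paternally expressed gene of the nucleosome assembly protein family inside Herc3, at 4.66 to 5.51 CPM in controls and 3.91 to 4.17 CPM in knockouts (log2 fold change -0.33 ± 0.15, edgeR adjusted p = 0.263). Herc3, named after its values were seen, had a log2 fold change of 0.12 ± 0.14.

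Commd1 is the host gene of Zrsr1, a paternally expressed retrogene in its intron, and only the host had an unadjusted p under 0.05. Commd1, a copper homeostasis gene, stood at 56.1, 61.9 and 47.5 CPM in controls and at 37.3, 48.5 and 39.2 CPM in knockouts, with a log2 fold change of -0.41 ± 0.13 (edgeR adjusted p = 0.148; 0.0153 without knockout 2). Zrsr1, related to the splicing factor U2AF, stood at 12.0, 11.8 and 11.8 CPM in controls and at 11.4, 11.9 and 12.0 CPM in knockouts (log2 fold change -0.01 ± 0.10). The difference between the 2 genes was not tested.

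The remaining members had no test result near the threshold. Mest, an abundant paternally expressed gene of the hydrolase fold, stood at 1863 to 2251 CPM in controls and 1769 to 1937 CPM in knockouts (log2 fold change -0.12 ± 0.10, edgeR adjusted p = 0.541). Gnas, which encodes the stimulatory G protein alpha subunit and several imprinted isoforms that the counts pool, stood at 981 to 1118 CPM and 986 to 1201 CPM (0.02 ± 0.10). Impact, a regulator of translation, Zdbf2, H13, a signal peptide peptidase gene, and Dcn, the decorin gene, had log2 fold changes of -0.11 ± 0.11, 0.10 ± 0.10, -0.03 ± 0.11 and -0.20 ± 0.15.

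The share of alignments outside genes was highest in knockouts 1 and 3, and members were sorted by whether these libraries stood apart. Of the 40 tested members, 9 had knockouts 1 and 3 above the other 4 libraries, and 13 had them below, against 18.8% and 16.6% of all tested genes. The 9 were Meg3, Rian, Mirg, Plagl1, Magel2, Kcnq1ot1, Igf2r, Airn and Ppp1r9a, a count near that background. The 13, a larger share than 16.6%, were Igf2, H19, Cdkn1c, Mest, Grb10, Ndn, Nnat, Sgce, Nap1l5, Usp29, Ube3a, Dcn and Commd1. Neither share was tested against that of all tested genes. Of the 6 long non-coding members (grouped after their values were seen), 5 were higher at an unadjusted p under 0.05, with H19 the exception. Over all tested genes 10.7% were higher at that threshold, and a group chosen by its values is no test. Malat1 and Neat1, nuclear non-coding RNAs that are not imprinted and were added after seeing the data, varied in the same libraries. Malat1 stood at 360, 384 and 580 CPM in controls and at 948, 378 and 645 CPM in knockouts, and Neat1 at 1.30, 2.28 and 4.21 CPM and at 7.44, 3.10 and 7.00 CPM. Both were thus highest in knockouts 1 and 3, and knockout 2 lay within the controls. Whether the outside-gene share has a part in these levels was not tested beyond the fits given next.

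Knockout 2, whose share of 10.6% was within the control range, lay above all 3 controls in 17 of the 40 tested members and below them in 8, against 29.8% and 30.1% of all tested genes. The 17 include the 7 whose groups did not overlap, and also Igf2, H19, Dlk1, Ndn, Mkrn3, Peg12, Ube3a, Gnas, Cd81 and Dio3. Meg3, Kcnq1ot1 and Ppp1r9a were among the 15 members that lay within the controls. With knockout 2 as the only knockout, an alternative added after seeing the data, the log2 fold change was 0.34 for Igf2r, 0.50 for Airn, 0.42 for Mirg, 0.29 for Rian, 0.28 for Magel2, 0.50 for Meg3 and -0.31 for Nnat, and no edgeR call was made for these 7. Dlk1 was the only member then called, at 0.66 (edgeR adjusted p = 0.0076), against 1.68% of all genes called higher and 1.1% lower. These fits assume that the lone knockout varies as the controls do. With the outside-gene share as a covariate, 4 members were called, against 2.9% of all genes higher and 2.06% lower: Dlk1 (log2 fold change 0.61, edgeR adjusted p = 0.0014), Cd81 (0.37, 0.0136), Igf2r (0.34, 0.0465) and Nnat (-0.31, 0.0445). In that fit the log2 fold change of Meg3 was 0.61 in place of 1.64, that of Kcnq1ot1 0.12 in place of 0.66, that of Magel2 0.35 in place of 0.90 and that of Airn 0.57 in place of 1.02, none of them called. The share was 18.3% and 18.02% in knockouts 1 and 3 and at most 13.1% in the other libraries. The covariate fit thus cannot separate the share from the knockout in knockouts 1 and 3. Its group differences rest largely on knockout 2, the library where Dlk1 and Cd81 were highest, at 292 and 149 CPM.

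**Figure D4:**
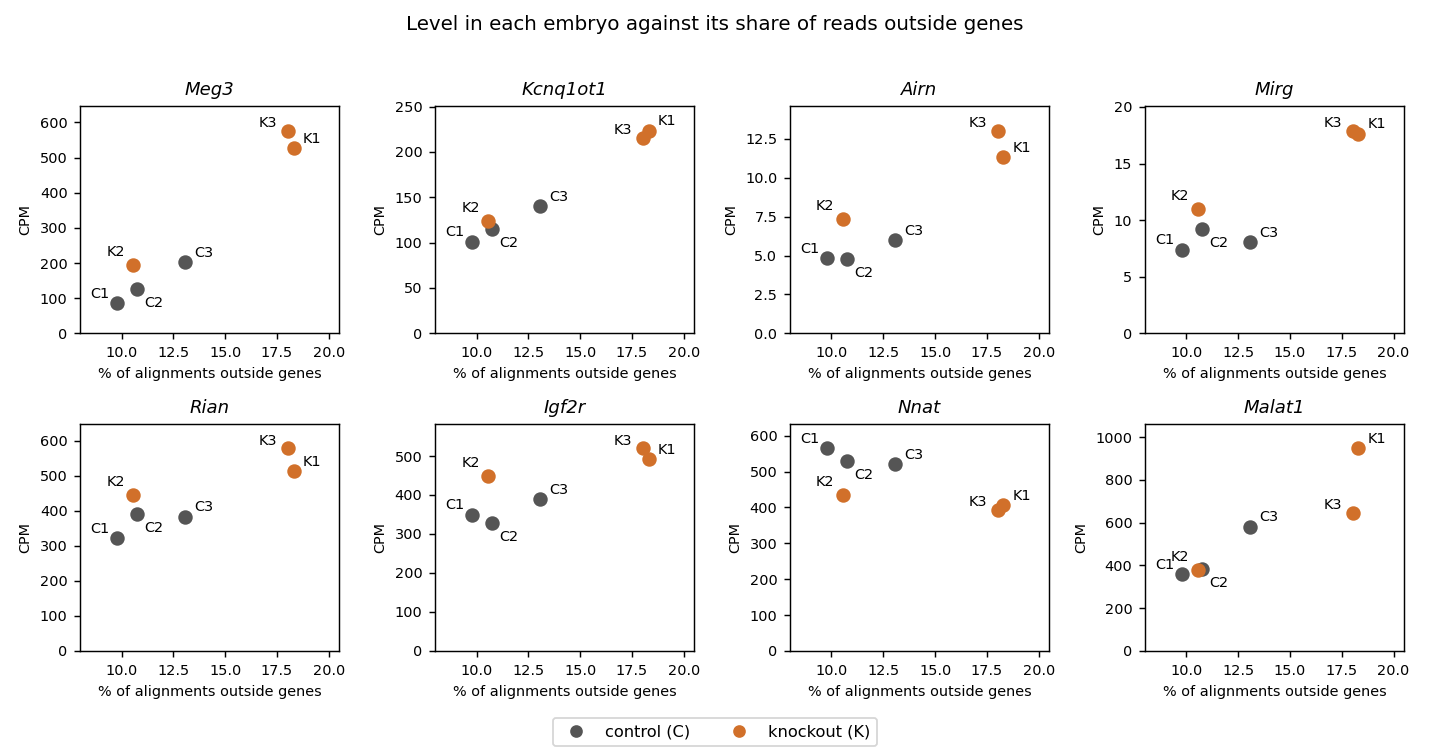
Level in CPM (y axis) of 7 imprinted genes and of Malat1 against the percentage of alignments outside genes (x axis) in each embryo, controls in grey (C1 to C3) and knockouts in orange (K1 to K3). Meg3, Kcnq1ot1 and Malat1 are highest in K1 and K3, with K2 within the controls. Igf2r, Airn, Mirg, Rian and Nnat keep K2 outside the control range.

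Genes that lay outside the 42 give the setting. Of 28 other imprinted genes that were tested none was called by edgeR. At an unadjusted p under 0.05, 3 lay higher and 3 lower, against 10.7% and 8.53% of all tested genes. Their median change was 0.01 on the log2 scale. The smallest p was that of Asb4, at 203 ± 10.3 CPM in controls and 164 ± 13.1 CPM in knockouts (log2 fold change -0.30 ± 0.08, edgeR adjusted p = 0.11), the 1 gene of the list that DESeq2 called. It was followed by Sfmbt2 at 0.44 ± 0.15, Trappc9 at 0.25 ± 0.09 and Slc22a3 at -0.90 ± 0.36. A further list took in genes linked to imprints, to the writing, keeping or removal of DNA methylation, or to carrying H3.3 to chromatin. Of 22 tested, none was called by edgeR, and the median was 0.05. At an unadjusted p under 0.05, 3 were higher and 0 lower, beside the same shares of all tested genes. Ctcfl, the germline relative of the insulator protein CTCF, had the smallest p, at 0.887 ± 0.146 CPM in controls and 2.87 ± 1.42 CPM in knockouts (log2 fold change 1.68 ± 0.37, edgeR adjusted p = 0.0639), and was the 1 gene of its list that DESeq2 called. Tet2, an enzyme that oxidises methylated cytosine, had a log2 fold change of 0.38 ± 0.12, the maintenance methyltransferase gene Dnmt1 0.17 ± 0.08 and the ZFP57 partner gene Trim28 -0.18 ± 0.08.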

How the data were processed

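Per the labels' protocols, polyadenylated RNA of 6 whole embryos went into KAPA stranded libraries. The authors deposited whole-number counts per gene symbol, without normalization. Named in the submitters' processing notes are the mm9 build, HTSeq, Bowtie2, TopHat2 and Trimmomatic. Which annotation and strand setting the counting had is not given in the sources used here, and counts of repeats were not used. Rows naming no gene were left out throughout. Of the alignments, 9.79% to 18.3% lay outside genes, 18.2% to 22.6% were not unique and 0.531% to 0.724% were ambiguous.

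Tests used edgeR 4.0.16 (R 4.3.3), with TMM scaling, the robust quasi-likelihood fit and Benjamini-Hochberg adjustment over 15075 genes that passed filterByExpr (at least 10 counts, total at least 15), and the code was checked on simulated counts. SE was the absolute log2 fold change divided by the root of F, and 0.5 CPM was added before log2. Groups came from sample titles. Exon lengths came from GENCODE M21 (GRCm38) and sequences from RefSeq GRCm38.p6, while the files use mm9, so no gene coordinates of the files are given. All 42 members were named. From the lists of other imprinted genes, of imprint and methylation genes and of the IGF axis, the 4 with the smallest p were named. From the cell type and low-oxygen marker lists the called genes were named, except the macrophage genes, which were only counted. From the trophoblast list the genes at 0 and the tested genes were named. The members and lists were chosen with earlier results of these data known. Alternatives were other scalings, DESeq2 1.42.0, voom of limma 3.58.1, filters, thresholds, a replicate block, left-out or summed libraries, a covariate and removal of ribosomal RNA.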

Additional observations from a re-analysis of the deposited data

How the results depend on the processing

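With RLE scaling, upper quartile scaling, limma-voom or ribosomal RNA genes removed, every count of called genes stayed within 1.5 times its value and Nnat stayed the only member called. The calls over all genes, 83 higher and 144 lower, became 441 and 328 with DESeq2, 144 and 184 with no filter, 56 and 86 with at least 1 CPM in 3 libraries, and 272 and 256 at an adjusted p under 0.1. They became 270 and 179 with knockouts 2 and 3 summed, whose file names share a code, 437 and 311 with the outside-gene share as a covariate, and 260 and 170 without knockouts 1 and 3, a setting added after seeing the data. Leaving out each library gave 7 to 1159 higher and 53 to 504 lower, the most without knockout 2. Paternally expressed members called higher, 0 before, were 4 with DESeq2, 3 with knockouts 2 and 3 summed, and 1 with no filter, at an adjusted p under 0.1, with the covariate or without knockouts 1 and 3. Those called lower, 1 before, were 0 with library totals, with at least 1 CPM in 3 libraries, with no robust prior or without knockouts 1 and 3. Maternally expressed members called higher, 0 before, were 4 with DESeq2, 3 with knockouts 2 and 3 summed, with no filter or at an adjusted p under 0.1, and 1 with the covariate. Members with restricted imprinting called higher were 1 with the covariate. Leaving out each library gave 0 to 4 paternal genes higher and 0 to 2 lower, 0 to 3 maternal genes higher and 0 to 1 lower, and 0 to 1 restricted genes in each direction, and only without knockout 2 was any member called. The causes of these changes were not tested.

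The replicate numbers were used as a replicate block only here, because the labels do not say that they pair the embryos. Same-numbered deviations correlated at -0.0997, 0.227 and 0.308, and 2 of 6 embryos correlated best with their own number. With 3 embryos a group, these values cannot tell whether the embryos were paired. With the block, 333 genes were higher and 256 lower, and 2 paternal genes (Airn and Magel2) and 2 maternal genes (Igf2r and Rian) were called higher, with Nnat and 1 restricted gene, Commd1, lower.

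With library totals the log2 fold changes that changed sign were Grb10 (0.0197), Peg12 (0.0363), Zrsr1 (0.0422) and H13 (0.0277), and with knockouts 2 and 3 summed Igf2 (-0.0221) and Gnas (-0.0151). With the covariate they were H19 (0.0442), Grb10 (0.0234), Ndn (0.149), Peg12 (0.0719), Zim1 (-0.154), Phlda2 (-0.108) and Ube3a (0.102). Without knockouts 1 and 3 they were H19 (0.0678), Grb10 (0.0345), Ndn (0.192), Peg12 (0.102), Zim1 (-0.174), Phlda2 (-0.311), Zrsr1 (0.000665), Ube3a (0.115), Ppp1r9a (-0.0194, from 0.54) and Dcn (0.00841, from -0.20). Leaving out each library gave ranges across 0 for Cd81 (-0.0606 to 0.217), Gnas (-0.0794 to 0.077), Grb10 (-0.073 to 0.00553), H13 (-0.107 to 0.0868), Igf2 (-0.123 to 0.0949), Impact (-0.19 to 0.00533), Peg12 (-0.0825 to 0.0437), Phlda2 (-0.129 to 0.176), Zim1 (-0.027 to 0.196), Zrsr1 (-0.0262 to 0.0118) and the ratio of Usp29 to Peg3 (-0.0783 to 0.0877). No scaling moved the median of all genes by more than 0.06. At the counts of Snrpn, Dio3, Phlda2, Slc22a18 and Ascl2, small differences are not detectable.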
